A study of Mus musculus with 16 samples.

Results

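Gdf10, which encodes the secreted factor BMP3b, is described here with 9 ligand and receptor genes of the bone morphogenetic protein (BMP) and activin branch in mouse brown adipose tissue. The 10 genes were chosen by symbol for their place in the pathway, with earlier results of these data known. Their transcripts were read in every library and in each combination of genotype and treatment. The ligand genes were Gdf10, Bmp8b, Bmp4, Bmp2 and Inhbb, the type I receptor genes were Acvr1c and Bmpr1a, and the type II receptor genes were Bmpr2, Acvr2a and Acvr2b. All 10 were among the 15350 genes measured. Gdf10, Bmp4 and Bmpr1a lie on chromosome 14, Bmp2, Acvr1c and Acvr2a on chromosome 2, Inhbb and Bmpr2 on chromosome 1, Bmp8b on chromosome 4 and Acvr2b on chromosome 9.

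The tissue was interscapular brown adipose tissue of Ucp1-knockout (KO) and wild-type (WT) mice, both on the C57BL/6J strain. The 4 groups were KO and WT mice infused with isoproterenol, a beta-adrenergic agonist, and KO and WT mice given saline. Isoproterenol was delivered by implanted minipump at 60 mg per kg per day for 3 days. Each group held 4 libraries of 75-base single reads, and the age of the mice is not given in the sources used here. The labels do not state whether libraries within a group were from different mice, so each p-value reflects the variation among these samples, part of which could be technical.

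BMPs and activins are dimeric ligands that bring together type II and type I receptors on the cell surface. The type I receptor then phosphorylates SMAD proteins, SMAD1, SMAD5 and SMAD9 on the BMP side and SMAD2 and SMAD3 on the activin side. In adipose tissue, BMP4 and BMP2 are known as signals for commitment of precursor cells, BMP8B as a factor made by stimulated brown fat, and ALK7, the product of Acvr1c, as a receptor of mature adipocytes that restrains lipolysis.

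The depth of a library, as recovered reads over the measured genes, was 12914590 to 20986735 for KO isoproterenol, 11093784 to 16720338 for WT isoproterenol, 9004515 to 14381797 for KO saline and 10479767 to 12241512 for WT saline. Levels are CPM (counts per 1000000 reads) that include the prior count of 0.5 in the deposited values, so a gene with 0 reads keeps a small CPM. A count of 3 reads, the floor used here, was worth 0.143 to 0.345 CPM. The targeted gene Ucp1 had 19.0 to 2129 CPM in KO isoproterenol libraries, against 8905 to 18458 CPM in WT isoproterenol libraries. It had 410 to 1156 CPM in KO saline libraries, against 2298 to 3449 CPM in WT saline libraries, so reads of the gene were present in every KO library. One library, KO isoproterenol replicate 1, lay far from the rest. On the first principal component, which held 50.3% of the variance, it lay at 176 and the other KO isoproterenol libraries at 57.5 to 107. Values without this library are given below where they change the call of a member, and for some other results.

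Per exon length, the receptor genes other than Acvr2b stood above most of the ligand genes. In CPM per kilobase of exon, Bmpr1a averaged 10.9 in KO isoproterenol, 8.86 in WT isoproterenol, 10.01 in KO saline and 10.9 in WT saline. Acvr1c averaged 5.07 in KO isoproterenol, 10.1 in WT isoproterenol, 10.4 in KO saline and 10.1 in WT saline. Bmpr1a encodes ALK3, a type I receptor for BMP2 and BMP4. Bmpr2 and Acvr2a, type II receptor genes of the BMP and activin sides, averaged 4.87 to 5.59 CPM per kilobase over the 4 groups. Acvr2b, the close relative of Acvr2a, was far lower, from 0.471 in KO isoproterenol to 1.47 CPM per kilobase in WT saline.

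Among the ligand genes, Gdf10 had the highest mean level per exon length in WT isoproterenol (5.30 CPM per kilobase), KO saline (2.04) and WT saline (2.34). In KO isoproterenol, Bmp8b (3.03 CPM per kilobase) stood above Gdf10 (2.42), and the libraries of the pair overlapped. WT isoproterenol was the group in which Gdf10 reached the type II receptor genes, between Bmpr2 (5.48) and Acvr2a (4.87 CPM per kilobase), with overlapping libraries on both sides. In saline tissue the libraries of Gdf10 lay wholly below those of Acvr2a in KO and of Bmpr2 in WT, its neighbours above. Inhbb closed the order in WT isoproterenol, and Bmp8b closed it in both saline groups, each without overlap with its upper neighbour. With the longest transcript in place of all exons, Bmpr1a and Acvr1c and also Inhbb and Acvr2b changed places in KO saline, and Bmpr2 and Acvr2a did so in WT saline.

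**Figure D1:**
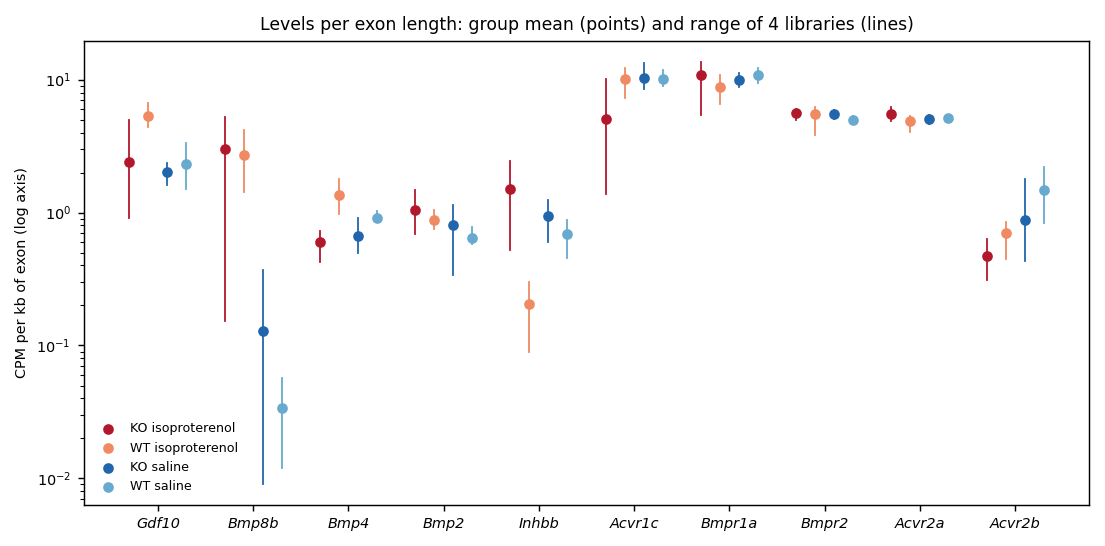
Mean level per exon length of the 10 genes in each group, in CPM per kilobase on a log axis, with lines from the lowest to the highest of 4 libraries. Bmpr1a averaged 8.86 to 10.9 in the 4 groups, whereas Bmp8b averaged 3.03 in KO isoproterenol, 2.71 in WT isoproterenol, 0.128 in KO saline and 0.0340 in WT saline.

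Upstream sequences are shown for the 4 members with a called response to isoproterenol in either genotype. Each line gives the 250 bases before an annotated start on the gene's strand, from RefSeq on build GRCm38.p6, which is an older build than the mm39 that the reads were aligned to. Capitals mark GC boxes (GGGCGG, or CCGCCC when read from the other strand) and CCAAT boxes (CCAAT, or ATTGG).
Gdf10, chr14:33923337-33923586, plus strand: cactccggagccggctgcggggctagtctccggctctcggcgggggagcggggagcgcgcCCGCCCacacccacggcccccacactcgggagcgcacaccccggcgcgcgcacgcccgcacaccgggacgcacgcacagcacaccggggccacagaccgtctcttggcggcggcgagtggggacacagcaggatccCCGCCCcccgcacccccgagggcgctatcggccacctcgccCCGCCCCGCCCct
Bmp8b, chr4:123104911-123105160, plus strand: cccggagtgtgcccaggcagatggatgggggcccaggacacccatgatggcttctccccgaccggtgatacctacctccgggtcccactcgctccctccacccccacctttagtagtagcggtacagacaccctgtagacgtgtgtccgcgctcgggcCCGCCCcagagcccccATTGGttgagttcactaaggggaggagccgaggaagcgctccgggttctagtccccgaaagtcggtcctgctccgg
Inhbb, chr1:119422249-119422498, minus strand: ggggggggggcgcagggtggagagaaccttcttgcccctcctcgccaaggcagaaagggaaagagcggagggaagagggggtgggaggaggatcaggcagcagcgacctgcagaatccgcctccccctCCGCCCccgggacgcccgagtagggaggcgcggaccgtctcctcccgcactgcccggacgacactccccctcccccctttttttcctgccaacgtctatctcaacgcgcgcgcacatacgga
Acvr1c, chr2:58357759-58358008, minus strand: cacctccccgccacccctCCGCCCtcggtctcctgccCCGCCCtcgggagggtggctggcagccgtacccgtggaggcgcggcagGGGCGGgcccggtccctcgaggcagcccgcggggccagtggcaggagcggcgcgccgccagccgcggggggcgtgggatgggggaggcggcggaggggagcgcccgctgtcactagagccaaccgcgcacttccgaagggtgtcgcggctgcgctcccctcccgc
The Gdf10 window held 4 GC boxes, of which the 2 nearest the start overlap, and 78.8% of its bases were G or C. Acvr1c had 3 GC boxes in a window of 79.6% G and C, Bmp8b had 1 GC box and 1 CCAAT box at 65.2%, and Inhbb had 1 GC box at 68%, against a median of 52.4% over all 32851 windows. A second window of Acvr1c, at another start, is not printed and held no GC box or CCAAT box at 49.6% G and C.

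Of the 10 members, 9 matched at least 1 upstream window. All 9 held a GC box in at least 1 window, and 32.7% of all windows held one. The CCAAT box was found in 2 members, Bmp8b and Bmpr1a, and in 33.8% of all windows. The motif GGCGCC, a GC-rich element that BMP-activated SMADs can bind, was found in 2 members, Bmpr1a and Bmpr2, and in 9.59% of all windows. No member held the cAMP response element TGACGTCA (1.55% of all windows), its short form TGACG (17.8%), the nuclear receptor element AGGTCA (14.0%) or the TATA box TATAAA (12.4%). Both strands were searched, TGACG lies within TGACGTCA, and these are matches of letters in a short window, with no binding measured.

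Among the members, isoproterenol in WT tissue raised Gdf10 and Bmp8b and lowered Inhbb, with no receptor gene called in the fit over all groups. In KO tissue it raised Bmp8b and lowered the receptor gene Acvr1c. A call here means an adjusted p under 0.05 in a limma fit over all genes. In WT, 3 of the 10 members were called for isoproterenol against saline, 2 higher and 1 lower, where 16.6% of all genes were called, 7.60% higher and 8.98% lower. With the WT groups fitted alone and the replicate number as a block, 5 members were called in WT, Bmpr1a and Acvr2b in addition, where 34.5% of all genes were called. In KO, 2 members were called, 1 higher and 1 lower, where 48.6% of all genes were called, 23.8% higher and 24.8% lower. KO against WT under isoproterenol gave 4 called members, Inhbb higher and Gdf10, Bmp4 and Acvr1c lower, with 44.6% of all genes called, 21.6% higher and 23.1% lower.

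Under saline, KO against WT gave 0 called members in limma and 1, Acvr2b, at an unadjusted p under 0.05. Of all genes, 0.0977% were called there, 0.0717% higher and 0.0261% lower. The count of members was also 0 with voom weights and in each other fit run. Libraries of the compared groups did not overlap for 0 members in KO and 3 in WT for isoproterenol against saline, where 37.5% and 32.9% of all genes did not overlap. For KO against WT, 2 members did not overlap under isoproterenol (35.5% of all genes) and 0 under saline (7.19%). The counts of called members without KO isoproterenol replicate 1 were 3 in KO (45.3% of all genes called), 3 in WT (23.7%) and 5 for KO against WT under isoproterenol (42.4%).

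The KO response differed from the WT response for 1 member, Inhbb, where 24.7% of all genes were called, 10.9% higher and 13.8% lower. Without KO isoproterenol replicate 1 this count was 3, where 24.6% of all genes were called. The median log2 difference over the members was 0.03 for isoproterenol in KO and 0.05 in WT, beside -0.0021 and -0.02 over all genes. It was -0.26 for KO against WT under isoproterenol, beside 0.02 over all genes. The comparisons of a pair of groups share libraries, so the calls for one member are not independent of each other.

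**Figure D2:**
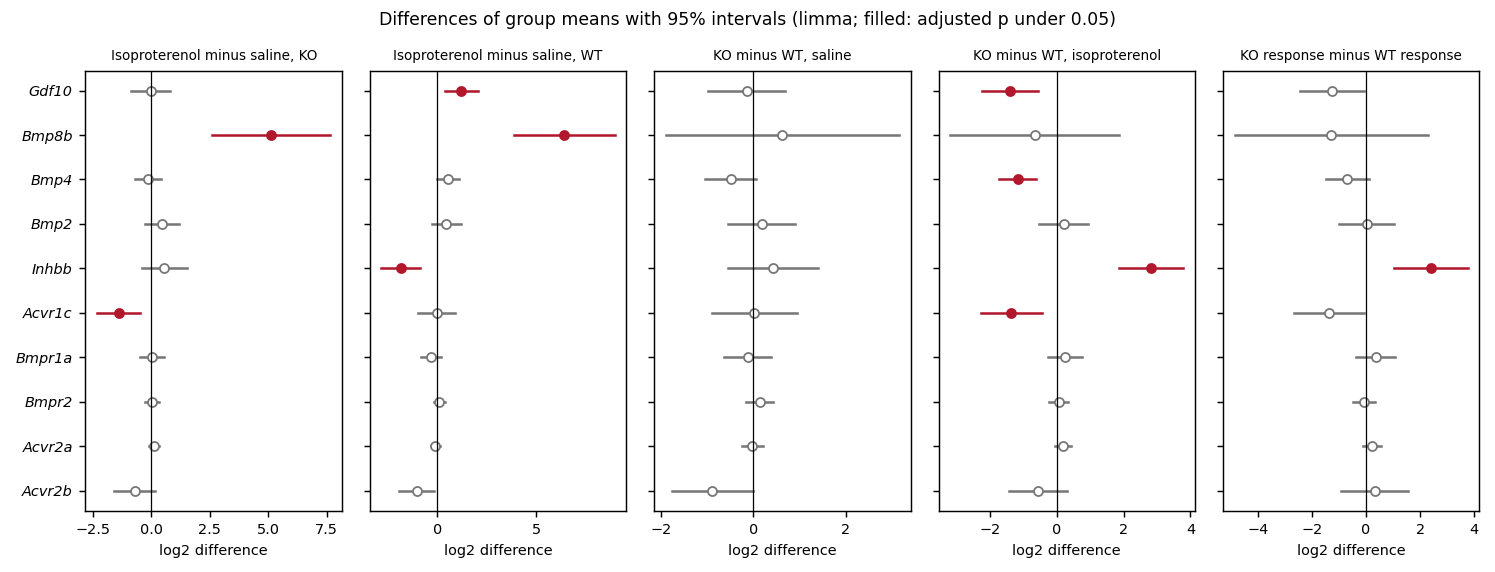
Log2 difference of each member in the 5 comparisons with its 95% interval from limma, filled red where the adjusted p was under 0.05. Inhbb is the member called in both KO against WT under isoproterenol (2.82) and in KO response minus WT response (2.40), and the intervals of Bmp8b are the widest.

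Gdf10 was higher after isoproterenol in WT tissue and was not called in KO tissue. It had 34.8, 23.2, 23.1 and 29.4 CPM in WT isoproterenol libraries, against 9.92, 7.81, 13.5 and 17.5 CPM in WT saline libraries. All WT isoproterenol libraries lay above all WT saline libraries. The log2 difference was 1.23 (SE 0.40, adjusted p = 0.0459 by limma), or 2.34-fold. In KO isoproterenol libraries it had 25.8, 7.20, 12.8 and 4.74 CPM, against 10.5, 8.45, 11.1 and 12.3 CPM in KO saline libraries. These groups overlapped, with the highest and the lowest library both in KO isoproterenol. The log2 difference was -0.03 (SE 0.40, adjusted p = 0.957). Without KO isoproterenol replicate 1, the highest library of its group, it was -0.47 (adjusted p = 0.228 by limma).

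Under isoproterenol, Gdf10 averaged 12.6 ± 9.38 CPM in KO tissue and 27.6 ± 5.59 CPM in WT tissue (SD, n = 4 each), a log2 difference of -1.40 (SE 0.40, adjusted p = 0.00974 by limma). Only KO isoproterenol replicate 1 reached into the WT range, and without it the log2 difference was -1.84 (adjusted p = 0.000303). Fitted on these 8 libraries alone, the adjusted p was 0.0518. The difference of the responses was -1.26 for Gdf10 (95% interval -2.45 to -0.07, adjusted p = 0.111), and it was called without KO isoproterenol replicate 1 (-1.70, adjusted p = 0.00963).

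The WT call of Gdf10 lay close to the threshold. It was kept in 4 of the 16 fits that each left out a library, with adjusted p from 0.0062 to 0.136, and the log2 difference stayed between 1.03 and 1.42. The adjusted p was 0.08 with library totals as scaling, 0.0545 with voom weights, 0.00339 when the WT groups were fitted alone and 0.0017 when they were fitted alone with the replicate block. The libraries without which the call was lost were KO isoproterenol replicate 3, all WT isoproterenol and all KO saline libraries, and WT saline replicates 1, 2 and 3.

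Bmp8b, which encodes BMP8B, was near the floor in saline tissue and present after isoproterenol in both genotypes. In KO isoproterenol libraries it had 0.595, 20.3, 6.09 and 20.1 CPM, against 0.0354, 0.0416, 0.472 and 1.44 CPM in KO saline libraries. In WT isoproterenol libraries it had 5.50, 10.4, 16.1 and 10.05 CPM, against 0.220, 0.135, 0.0465 and 0.125 CPM in WT saline libraries. The reads behind these levels summed to 856 in KO isoproterenol, 561 in WT isoproterenol, 18 in KO saline and 4 in WT saline. WT isoproterenol libraries did not overlap with WT saline libraries. In KO the groups overlapped, because KO isoproterenol replicate 1 lay below KO saline replicate 4.

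The log2 difference of Bmp8b for isoproterenol against saline was 5.12 in KO (SE 1.19, adjusted p = 0.00255) and 6.42 in WT (SE 1.19, adjusted p = 0.00239 by limma). Both were called in all 16 fits that left out a library. Without KO isoproterenol replicate 1 the KO value was 6.25. With so few saline reads these sizes depend on the prior count, and with a pseudocount of 1 CPM the WT value was 3.32. KO against WT under isoproterenol gave -0.66 (95% interval -3.19 to 1.86, adjusted p = 0.676), an interval too wide to show that the genotypes were alike.

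Reads of Bmp8b are uncertain in origin. The gene overlaps Oxct2b on its own strand and Ppie on the other strand, and its near copy Bmp8a is not among the genes analysed here. The libraries were stranded, but the strand setting of the counting is not given in the sources used here. Ppie, the cyclophilin E gene, had 16.7 to 22.5 CPM in KO and 14.0 to 17.0 in WT after isoproterenol, and 13.9 to 15.3 in KO and 14.3 to 16.4 in WT after saline. Its log2 difference for isoproterenol against saline was 0.34 in KO (adjusted p = 0.025) and 0.03 in WT (adjusted p = 0.891 by limma).

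Inhbb, which encodes the beta B subunit of activin B and inhibin B, went the opposite way to Gdf10 in WT tissue. It had 1.27, 1.02, 0.379 and 0.805 CPM in WT isoproterenol libraries, against 3.75, 3.02, 2.93 and 1.95 CPM in WT saline libraries. Every WT isoproterenol library lay below every WT saline library, and the log2 difference was -1.84 (SE 0.45, adjusted p = 0.0129 by limma), or 0.279-fold. In KO isoproterenol libraries it had 2.21, 6.95, 6.19 and 10.4 CPM, against 4.78, 2.54, 5.33 and 3.27 CPM in KO saline libraries. The KO groups overlapped, and the log2 difference was 0.56 (SE 0.45, adjusted p = 0.33). Without KO isoproterenol replicate 1, the lowest library of its group, it was 1.0 (adjusted p = 0.0465).

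Under isoproterenol, Inhbb averaged 6.44 ± 3.36 CPM in KO tissue and 0.868 ± 0.377 CPM in WT tissue (SD, n = 4 each). The groups did not overlap, and the log2 difference was 2.82 (SE 0.45, adjusted p = 0.000239 by limma), or 7.07-fold. The KO response exceeded the WT response by 2.40 on the log2 scale (SE 0.64, adjusted p = 0.0163). Both were called in all 16 fits that left out a library, with the difference of responses between 2.04 and 2.84. The WT response of Inhbb was also called in all 16, and its adjusted p with voom weights was 0.0681. WT isoproterenol libraries held 5 to 13 reads of Inhbb each, so counting error is a large part of their spread.

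Bmp4 was lower in KO than in WT tissue under isoproterenol, and Bmp2 was not called. Bmp4 had 1.45, 0.958, 1.65 and 1.33 CPM in KO isoproterenol libraries, against 4.0, 3.06, 2.93 and 2.21 CPM in WT isoproterenol libraries. The groups did not overlap, and the log2 difference was -1.18 (SE 0.26, adjusted p = 0.00208 by limma). Saline tissue had 1.12 to 2.04 CPM in KO and 1.90 to 2.30 CPM in WT. The response to isoproterenol was not called in KO (-0.13, adjusted p = 0.698) or in WT (0.56, adjusted p = 0.161), nor was the difference of responses (-0.69, adjusted p = 0.178).

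Bmp2 had 2.45 to 5.22 CPM in KO and 2.66 to 3.71 in WT after isoproterenol, and 1.21 to 4.07 in KO and 2.07 to 2.75 in WT after saline, with overlap between KO and WT under both treatments. Its log2 difference for isoproterenol against saline was 0.47 in KO (95% interval -0.25 to 1.20) and 0.45 in WT (-0.27 to 1.18), and neither was called. Per exon length, the ratio of Bmp2 to Bmp4 was 1.07 to 3.45 in KO isoproterenol libraries, against 0.498 to 0.853 in WT isoproterenol libraries. In saline tissue it was 0.374 to 2.26 in KO libraries, against 0.684 to 0.756 in WT libraries.

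**Figure D3:**
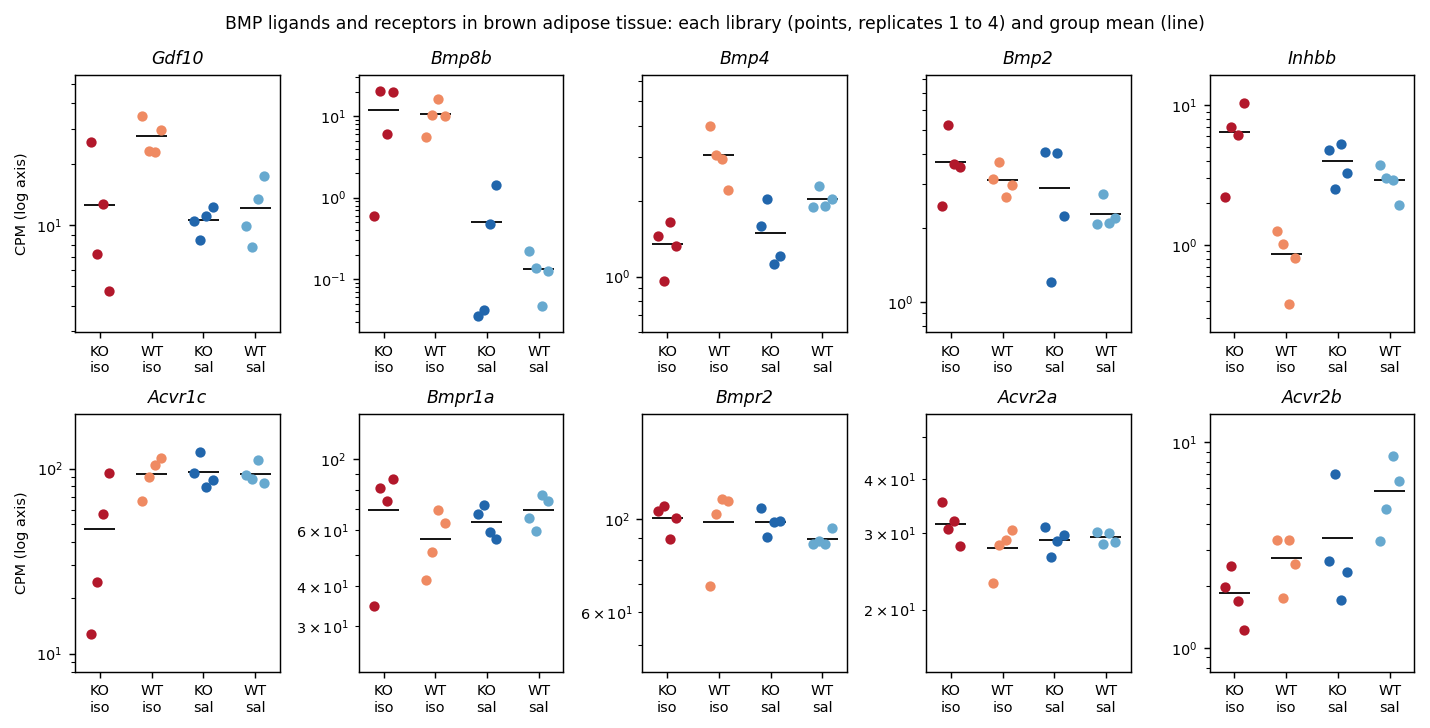
CPM of the 10 members in each library (points, replicates 1 to 4 within a group) on log axes that differ between panels, with a line at the group mean; a library with 0 reads is drawn at the CPM of the prior count. Inhbb in WT isoproterenol (0.379 to 1.27 CPM) lies below its other groups, Bmp8b in WT saline lies below both isoproterenol groups, and Bmp8b in KO saline overlaps KO isoproterenol replicate 1 (0.595 CPM).

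Among the receptor genes of the members, only Acvr1c, the gene of the type I receptor ALK7, was called in the fit over all groups. It had 12.8, 24.3, 56.9 and 94.3 CPM in KO isoproterenol libraries, against 94.7, 123, 79.7 and 87.2 CPM in KO saline libraries. In WT it had 67.1, 90.2, 104 and 114 CPM after isoproterenol, against 92.5, 88.2, 111 and 84.0 CPM after saline. The KO isoproterenol libraries spread 7.38-fold from lowest to highest, and replicate 4 lay within the range of KO saline. The log2 difference was -1.40 in KO (SE 0.43, adjusted p = 0.0145) and -0.02 in WT (SE 0.43, adjusted p = 0.984 by limma).

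KO against WT under isoproterenol gave -1.36 for Acvr1c (SE 0.43, adjusted p = 0.0188 by limma). Without KO isoproterenol replicate 1 the KO response of Acvr1c was -0.90 (adjusted p = 0.0336), and KO against WT was -0.86 (adjusted p = 0.0444). The KO against WT call was lost without KO isoproterenol replicate 2 or WT isoproterenol replicate 4, where the adjusted p reached 0.0589. Fitted on their own libraries alone, the KO response had an adjusted p of 0.0795 and KO against WT one of 0.0954. The difference of responses was -1.38 (95% interval -2.68 to -0.08, adjusted p = 0.109) and was called only without KO isoproterenol replicate 4 (-1.85, adjusted p = 0.0079).

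Bmpr1a, Bmpr2 and Acvr2a were not called in any of the 5 comparisons in the fit over all groups. With the WT groups alone and the replicate block, the WT response of Bmpr1a was called (-0.31, adjusted p = 0.0417 by limma). Bmpr1a had 34.6 to 86.5 CPM in KO and 41.9 to 69.1 in WT after isoproterenol, and 56.2 to 71.7 in KO and 59.5 to 77.2 in WT after saline. Its lowest value was again KO isoproterenol replicate 1, and without that library KO exceeded WT under isoproterenol by 0.54 (adjusted p = 0.0131), against 0.24 (adjusted p = 0.444 by limma) with it. Without the same library the difference of responses was also called for Bmpr1a (0.66, adjusted p = 0.0377), against 0.35 (adjusted p = 0.468) with it.

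Bmpr2 had 89.5 to 108 CPM in KO and 69.0 to 112 in WT after isoproterenol, and 90.5 to 106 in KO and 87.1 to 95.3 in WT after saline. The 95% interval of its response was -0.26 to 0.32 in KO and -0.18 to 0.40 in WT on the log2 scale. Acvr2a had 28.0 to 35.4 CPM in KO and 23.0 to 30.5 in WT after isoproterenol, and 26.4 to 31.1 in KO and 28.4 to 30.2 in WT after saline. Its intervals were -0.11 to 0.35 in KO and -0.32 to 0.14 in WT. KO against WT under isoproterenol was 0.19 for Acvr2a (adjusted p = 0.164) and was called with library totals as scaling (0.45, adjusted p = 0.0147). Acvr2a overlaps Orc4 on the other strand, which had 31.6 to 37.7 CPM in KO and 30.1 to 37.9 in WT after isoproterenol, and 22.8 to 31.6 in KO and 22.9 to 28.6 in WT after saline.

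Acvr2b, the second activin type II receptor gene, had 1.23 to 2.50 CPM in KO and 1.75 to 3.35 in WT after isoproterenol, and 1.71 to 7.04 in KO and 3.31 to 8.61 in WT after saline. The log2 difference was -1.03 for isoproterenol in WT (SE 0.41, adjusted p = 0.1 by limma) and -0.72 in KO (adjusted p = 0.163). The WT value was called when the WT groups were fitted alone (adjusted p = 0.028), when the replicate block was added to that fit (adjusted p = 0.0166) and without KO saline replicate 2 (adjusted p = 0.0448). Per exon length, Acvr2a exceeded Acvr2b by 8.47 to 15.7 times in KO isoproterenol libraries, 4.76 to 11.1 times in WT isoproterenol, 2.60 to 11.7 times in KO saline and 2.42 to 6.31 times in WT saline.

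Ratios within a library show the balance of members free of the scaling between libraries. Gdf10 over Inhbb, per exon length, was 9.51, 0.846, 1.69 and 0.372 in KO isoproterenol libraries, against 22.4, 18.6, 49.8 and 29.9 in WT isoproterenol libraries. It was 1.71 to 3.08 in KO saline libraries, against 2.11 to 7.32 in WT saline libraries. WT isoproterenol libraries therefore stood above all others in this ratio, and in 2 KO isoproterenol libraries Inhbb exceeded Gdf10. Acvr1c over Bmpr1a was 0.252, 0.204, 0.527 and 0.745 in KO isoproterenol libraries, against 1.09, 1.21, 1.03 and 1.24 in WT isoproterenol libraries. In saline tissue it was 0.921 to 1.18 in KO libraries, against 0.775 to 1.01 in WT libraries, so every KO isoproterenol library lay below every other library. These ratios were chosen with the members' values known and carry no test.

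Markers of cell types moved with treatment, beside the members above. More of them were called in KO than in WT tissue in the fit over all groups. The background of these counts was 23.8% of all genes higher and 24.8% lower in KO, and 7.60% and 8.98% in WT. All 12 macrophage markers were higher after isoproterenol in KO, and 3 of 12 were higher in WT. With library totals as scaling the WT count was 0, and without KO isoproterenol replicate 1 it was 5. Their summed level was 1012 to 8390 CPM in KO and 552 to 1002 in WT after isoproterenol, and 341 to 610 in KO and 245 to 596 in WT after saline. Of 12 pan-adipocyte markers, 1 was higher and 8 were lower after isoproterenol in KO, and 1 was lower in WT. They summed to 4423 to 40943 CPM in KO and 28644 to 30023 in WT after isoproterenol, and 26762 to 29889 in KO and 25852 to 31133 in WT after saline. Of 12 brown adipocyte markers, 6 were lower after isoproterenol in KO and 1 was higher in WT, and none of the markers was at 0 reads in a whole group. Without Ucp1, the other 11 brown markers summed to 168 to 6606 CPM in KO and 5837 to 8436 in WT after isoproterenol, and 5488 to 6566 in KO and 4811 to 6033 in WT after saline. Skeletal muscle markers varied widely within each group, from 13.2 to 594 CPM in KO and 7.09 to 2466 in WT after isoproterenol, and from 10.2 to 673 in KO and 18.7 to 7597 in WT after saline. Of the other lists in KO, 4 of 12 preadipocyte and fibroblast markers and 4 of 10 endothelial markers were higher and none of either was lower. When KO isoproterenol replicate 1 was left out, 1 marker of each was lower, and 4 fibroblast and 3 endothelial markers were higher. Of 8 pericyte and smooth muscle markers 3 were higher and 2 lower, of 7 lymphocyte markers 3 were lower, and of 6 Schwann cell markers 1 was higher and 1 lower. In WT, 1 fibroblast marker was higher and 1 lower, and 2 endothelial markers were higher. With the WT groups alone and the replicate block, 34.5% of all genes were called. There 5 macrophage and 3 pericyte and smooth muscle markers were higher and 4 skeletal muscle markers lower. Of fibroblast markers 1 was higher and 4 lower, of brown 4 and 1, of pan-adipocyte 3 and 2, and of endothelial 2 and 2. Lymphocyte and Schwann cell markers had 1 higher and 1 lower each. Without the block, 7 macrophage markers were higher and no skeletal muscle marker was called. KO against WT under isoproterenol gave 9 macrophage and 4 fibroblast markers higher, and 7 brown and 5 pan-adipocyte markers lower. Endothelial and lymphocyte markers had 1 lower each, pericyte and smooth muscle markers 2 higher and 2 lower, and Schwann cell markers 2 higher and 1 lower. Of all genes, 21.6% were higher and 23.1% lower there. Without KO isoproterenol replicate 1, 4 pan-adipocyte and 1 fibroblast marker were lower and 1 brown marker was higher. In tissue RNA, fewer cells of a type and less RNA per cell cannot be told apart, and the part of these shifts in the members' differences was not tested.

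Within KO isoproterenol, the libraries fell in the same order by Acvr1c and by the brown marker score, the mean of the markers' centred log2 CPM. From replicate 1 to replicate 4, Acvr1c had 12.8, 24.3, 56.9 and 94.3 CPM beside brown scores without Ucp1 of -3.54, -0.68, -0.08 and 0.83. Gdf10 ordered these libraries as the preadipocyte and fibroblast markers did, with 25.8, 7.20, 12.8 and 4.74 CPM beside scores of 1.22, -0.45, 0.95 and -0.61. The macrophage scores, 3.32, 1.60, 2.86 and 0.73, had that order too, as did Acvr2a, and Inhbb and Bmpr1a had the reverse of it. Bmp4 had the order of the pericyte and smooth muscle markers and of the lymphocyte markers. Bmp2 had that of the skeletal muscle markers, and Bmpr2 had the reverse of that of the Schwann cell markers. Every member was set beside every marker list, so matches by chance are likely among these. In WT isoproterenol, where Gdf10 was highest, the fibroblast scores were 0.02, 0.02, -0.20 and -0.33. They were 0.16, -0.52, 0.13 and 0.23 in WT saline, so the groups overlapped. Other lists parted these groups. Pericyte and smooth muscle scores (0.02 to 0.72, saline -0.20 to -0.03) and brown scores without Ucp1 (0.29 to 1.08, saline -0.59 to 0.004) were higher after isoproterenol in every WT library. Pan-adipocyte scores were lower (-0.16 to 0.21, saline 0.35 to 0.62). The macrophage, endothelial, skeletal muscle, lymphocyte and Schwann cell scores overlapped. The scores hold no member, orders of 4 libraries carry no test, and whether cell makeup bears on these levels was not tested.

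**Figure D4:**
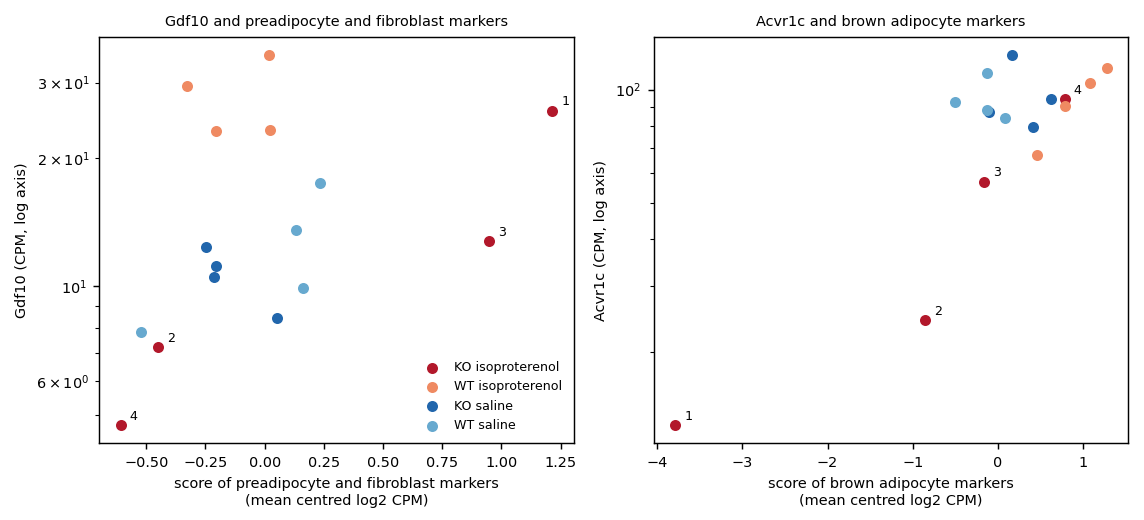
Gdf10 (left) and Acvr1c (right) in CPM on log axes against the score of preadipocyte and fibroblast markers and of brown adipocyte markers (mean centred log2 CPM, Ucp1 included), with KO isoproterenol replicates numbered. KO isoproterenol replicate 1 has the lowest brown score (-3.79) and the lowest Acvr1c (12.8 CPM) of the 16 libraries.

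More of the other pathway genes were called for isoproterenol in KO tissue than in WT tissue in the fit over all groups, as were more of all genes. Of 86 listed genes, 62 were measured. Isoproterenol gave 19 higher and 6 lower in KO, and 6 higher and 6 lower in WT. KO against WT gave 16 higher and 5 lower under isoproterenol. Under saline it gave 0 in either direction in limma, 0 with voom weights and 7 at an unadjusted p under 0.05. The difference of responses gave 10 higher and 1 lower. The shares of all genes called, given above, are the background of these counts. Without KO isoproterenol replicate 1, isoproterenol gave 18 higher and 6 lower in KO and 8 higher and 8 lower in WT, KO against WT under isoproterenol gave 15 higher and 8 lower, and the difference of responses gave 12 higher and 1 lower. With the WT groups alone and the replicate block, isoproterenol gave 14 higher and 14 lower in WT. With library totals as scaling, the calls over all genes shifted from 3647 higher and 3813 lower to 4493 and 2939 in KO, and from 1167 and 1379 to 770 and 1748 in WT. They shifted from 3311 higher and 3542 lower to 5030 and 2527 for KO against WT under isoproterenol. The median of all genes moved by 0.18 in KO, by -0.11 in WT and by 0.26 between the genotypes under isoproterenol with that scaling.

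Among the 14 other ligand genes measured, 5 were higher and 1 was lower after isoproterenol in KO, and 0 were higher and 1 was lower in WT. Gdf15, a stress-induced ligand, had 52.7, 222, 40.3 and 104 CPM in KO isoproterenol libraries, against 0.862 to 1.81 CPM in KO saline libraries, a log2 difference of 5.89 (SE 0.53, adjusted p = 1.37e-06 by limma). In WT it had 1.23 to 2.57 CPM after isoproterenol, against 0.419 to 2.25 CPM after saline. Gdf3, a ligand known to act through ALK7, had 3.99 to 34.0 CPM in KO isoproterenol libraries, against 0.172 to 1.05 CPM in KO saline libraries, a log2 difference of 4.97 (SE 0.85, adjusted p = 0.00028). Inhba, which encodes the beta A subunit of activin A, rose by 1.32 in KO (adjusted p = 0.0285), a call lost without KO isoproterenol replicate 1 (0.92, adjusted p = 0.0999).

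Gdf5, a BMP-type ligand known for its part in joint formation, fell in both genotypes. It had 0.119 to 0.710 CPM in KO and 2.07 to 5.13 in WT after isoproterenol, and 7.87 to 14.8 in KO and 12.9 to 19.0 in WT after saline. Its log2 difference for isoproterenol was -4.89 in KO (adjusted p = 1.76e-06) and -2.40 in WT (adjusted p = 0.00276 by limma). The responses differed by -2.49 (SE 0.64, adjusted p = 0.0139). The responses also differed for Gdf3 (5.24, adjusted p = 0.0079) and Gdf15 (5.10, adjusted p = 0.000905).

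Of 6 other receptor genes measured, 3 were higher and 1 was lower after isoproterenol in KO, and 1 was higher and 2 were lower in WT. Acvr1b, the gene of the activin type I receptor ALK4, had 46.1 to 53.1 CPM in KO isoproterenol libraries, against 15.8 to 19.4 CPM in KO saline libraries, and 17.4 to 19.8 CPM in WT isoproterenol libraries, against 18.3 to 23.9 CPM in WT saline libraries. Its log2 difference was 1.45 in KO (SE 0.11, adjusted p = 2.7e-07 by limma), and the responses differed by 1.70 (adjusted p = 2.36e-05). Tgfbr1, a TGF-beta type I receptor gene, rose by 0.76 in KO (adjusted p = 0.00196). Acvrl1, the gene of the endothelial receptor ALK1, rose by 0.81 in KO (adjusted p = 0.00201) and by 0.57 in WT (adjusted p = 0.0445), where the call was lost with library totals (adjusted p = 0.198). Amhr2, the type II receptor gene for anti-Müllerian hormone, fell by 2.80 in KO (adjusted p = 0.000434). Tgfbr2 and Acvr1, type II and type I receptor genes, fell by 0.79 (adjusted p = 0.0074) and 0.50 (adjusted p = 0.0216) in WT.

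Of 8 secreted antagonist genes measured, 5 were higher and 0 lower after isoproterenol in KO, and 4 were higher without KO isoproterenol replicate 1. The number called was 3 without KO isoproterenol replicate 3, without KO saline replicate 2 and with the KO groups fitted alone. In WT, 0 of the 8 were called in limma and with voom weights, and 3 had an unadjusted p under 0.05. With the WT groups alone, with or without the replicate block, 1 was called. Bmper, which encodes a BMP-binding regulator made by endothelial cells, had 35.9 to 64.6 CPM in KO and 20.3 to 30.3 in WT after isoproterenol, and 12.9 to 17.7 in KO and 15.7 to 20.3 in WT after saline. Its KO difference was 1.60 (SE 0.19, adjusted p = 1.19e-05 by limma), and the responses differed by 1.10 (adjusted p = 0.00981). Sostdc1, an antagonist of BMP ligands, rose by 1.44 in KO, and Fstl3, an activin-binding follistatin relative, rose by 1.07. Chrdl1, which encodes the BMP antagonist chordin-like 1, rose by 0.85 (adjusted p = 0.0417), a call lost without KO isoproterenol replicate 1 (adjusted p = 0.0821). The remaining gene, Nbl1, rose by 0.71.

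Of 6 co-receptor genes measured, 2 were higher and 2 lower after isoproterenol in KO, and 1 was higher and 1 lower in WT. Eng, the gene of the endothelial co-receptor endoglin, rose by 1.18 in KO (adjusted p = 0.000668) and by 1.20 in WT (adjusted p = 0.00268 by limma). Bambi, a pseudoreceptor gene, rose by 1.35 in KO. Rgmb, a BMP co-receptor gene, fell by 0.49 in KO and by 0.60 in WT, and its relative Rgma fell by 1.18 in KO. The KO call of Rgmb was lost with library totals (adjusted p = 0.0993).

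Downstream of the receptors, 1 of 8 SMAD genes was higher and 1 lower after isoproterenol in each genotype. Smad3, on the activin side, rose by 0.90 in KO (adjusted p = 0.00708) and by 0.83 in WT (adjusted p = 0.0314 by limma). Smad5 fell by 0.32 in KO (adjusted p = 0.0463), and Smad1 fell by 0.69 in WT (adjusted p = 0.00974), both on the BMP side. With library totals the WT call of Smad3 (adjusted p = 0.0688) and the KO call of Smad5 (adjusted p = 0.408) were lost.

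Of 7 BMP target genes measured, Hey1, a target shared with Notch, was called in both genotypes, by 0.78 in KO (adjusted p = 0.0106) and by 1.34 in WT (adjusted p = 0.0014). None was lower in this fit, and 3 of the 7 had an unadjusted p under 0.05 in WT. The Id genes of this list, the standard readout of BMP signalling, were not called in either genotype in this fit. In WT, Atoh8, another BMP target, was called lower with library totals (-1.12, adjusted p = 0.0479) and without KO isoproterenol replicate 1 (-1.01, adjusted p = 0.0378), and Msx1 (0.80) was also called without that library (adjusted p = 0.0461). With the WT groups alone, 2 targets were higher and 3 lower. With the replicate block added, 2 were higher and 4 lower, namely Hey1 and Msx1, and Atoh8, Id3 (-0.72, adjusted p = 0.000915), Id4 (-0.64, adjusted p = 0.0341) and Id1 (-0.38, adjusted p = 0.018).

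Of 7 SMAD regulators, 0 were called in KO by limma, with 0 at an unadjusted p under 0.05 and 0 with voom weights. Pmepa1, which encodes an inhibitor of TGF-beta signalling, was called in KO without KO isoproterenol replicate 1 (1.08, adjusted p = 0.024). In WT, Zfp423 rose by 0.84 and Smurf1 fell by 0.36, and with the WT groups alone and the replicate block 4 SMAD regulators were higher and 1 was lower. Among 6 protease genes, Bmp1, which encodes a procollagen and chordin protease, rose by 1.56 in KO (adjusted p = 9.86e-05), Tll1 rose by 1.19 and Pcsk6 fell by 1.19, and Pcsk7 rose by 0.28 in WT. The Tll1 call was lost without KO isoproterenol replicate 1 (adjusted p = 0.0516), and the Pcsk7 call with library totals (adjusted p = 0.373).

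Between the genotypes under isoproterenol, 5 of the 14 other ligand genes were higher in KO tissue and 1 was lower. Those with the largest log2 differences were Gdf15 (5.73), Gdf3 (5.63), Gdf5 (-2.94) and Inhba (1.19). Of the 6 other receptor genes, 4 were higher and 1 was lower, the largest being Amhr2 (-1.69), Acvr1b (1.44), Tgfbr1 (0.74) and Acvr1 (0.63). Of the 8 antagonist genes, 4 were higher and 0 lower, namely Sostdc1 (1.52), Fst (1.13), Bmper (0.93) and Nbl1 (0.78). Smad1 (0.56), Bmp1 (1.24) and Tll1 (1.0) were higher, and Smad6 (-0.72), Pcsk6 (-0.78) and Rgma (-1.75) were lower. The calls of Inhba (adjusted p = 0.163), Tll1 (adjusted p = 0.115) and Pcsk6 (adjusted p = 0.0653) were lost without KO isoproterenol replicate 1. With library totals those of Smad6 (adjusted p = 0.0788) and Pcsk6 (adjusted p = 0.055) were lost. Bmp3 was not called (1.09, adjusted p = 0.0519 by limma). It was called higher without KO isoproterenol replicate 1 (1.41, adjusted p = 0.0137) and with library totals (1.35, adjusted p = 0.0164). Without KO isoproterenol replicate 1, Pcsk5 (0.82) was also called higher, and Gdf11 (-0.71), Msx1 (-0.94), Hey1 (-0.62) and Smad5 (-0.34) lower. The call of Lefty1 (1.17) was lost without it (adjusted p = 0.0533). The KO response also exceeded the WT response for the receptor genes Tgfbr1 (0.81), Tgfbr2 (0.79) and Acvr1 (0.74), for the antagonist gene Sostdc1 (2.43), and for Bmp1 (1.53) and Smad1 (0.74).

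**Figure D5:**
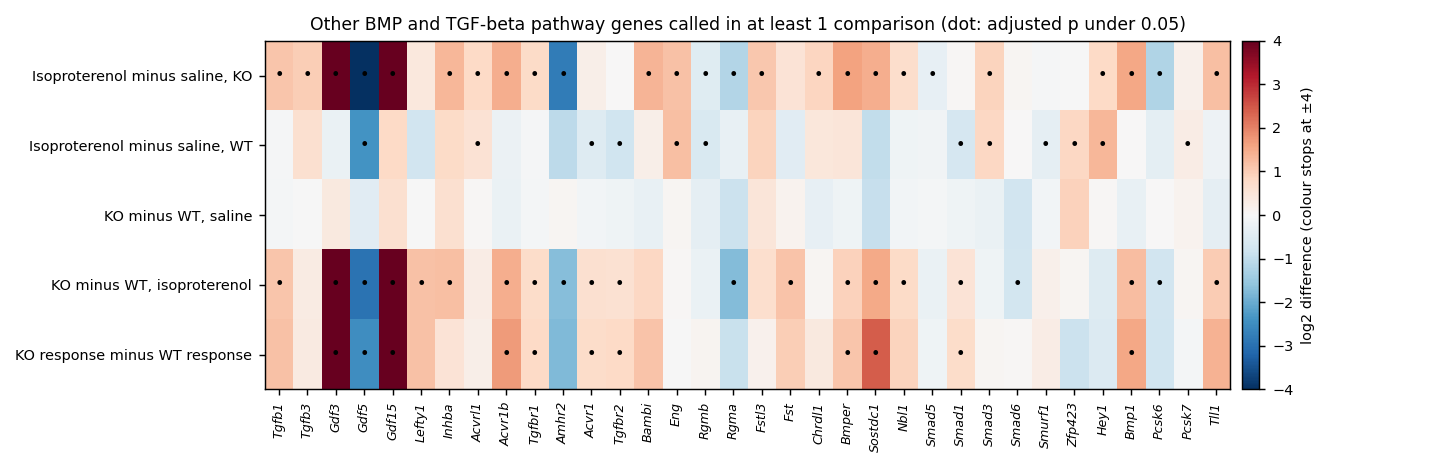
Log2 difference of the 34 pathway genes outside the members that were called in at least 1 comparison, as colour that stops at 4 in either direction, with a dot where the adjusted p was under 0.05. The row for KO against WT under saline holds no dot, and Gdf3, Gdf5 and Gdf15 have the deepest colours.

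The genes most like Gdf10 across the 16 libraries were Gli1, Col8a1, Tbxa2r, Klk8 and Ccnd1. Likeness was the root mean square difference of centred log2 CPM, over 13784 genes with a mean log2 CPM of at least 0. It was 0.32 for Gli1 and 0.39, 0.39, 0.41 and 0.42 for the next 4, where Gdf10 itself had a root mean square of 0.79 about its mean. Gli1, a transcription factor gene of the hedgehog pathway, averaged 2.06 CPM in KO isoproterenol, 3.44 in WT isoproterenol, 1.85 in KO saline and 1.90 in WT saline. Bmp4 was the member nearest to Gdf10, at rank 217 with 0.62, and the other members lay at rank 3255 or beyond. The 16 libraries differ in depth and in the marker levels given above, and such a rank carries no test.

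In absolute terms Bmp8b had no gene as close, but it also varied more than Gdf10 about its own mean. Its nearest genes were Pla2g2e (1.55), Acaa1b (1.92), Hist1h1d (2.05), Orm2 (2.05) and Mfsd2a (2.09), beside its own root mean square of 3.32. Pla2g2e, a secreted phospholipase gene, averaged 28.3 CPM in KO isoproterenol, 12.5 in WT isoproterenol, 0.839 in KO saline and 0.270 in WT saline.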

How the data were processed

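Transcripts of interscapular brown adipose tissue were read from 16 libraries, 4 for each of 4 groups, which were taken from the genotype and treatment labels. For saline samples the protocol text mentions isoproterenol, so the treatment characteristic decided the group. Replicate numbers came from the titles, which differ from the column headers in 3 KO saline libraries.

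The deposited values are log2 CPM per Ensembl gene and library. STAR, limma and build mm39 are named in the submitters' processing notes, without versions. No source used here gives the annotation, counter, strand setting or gene filter. From the values, each was a whole number of reads plus 0.5 in a library-specific step. This gave whole reads for 100% of the values, within 0.001 of a whole number, and the library sizes the authors divided by were 0.854 to 1.25 times the recovered totals. Limits from the floor of 3 reads cover counting error only.

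A test on counts had been planned. Because the values were log2 CPM, limma 3.58.1 (R 4.3.3, statmod 1.5.0) was fitted to them directly, with 4 group means, 12 residual degrees of freedom, a mean-variance trend and robust moderation, after the code was tested on simulated data. P-values were adjusted over 15350 genes (Benjamini-Hochberg). The alternatives were a replicate block, each pair of groups fitted alone, library totals, voom weights, a pseudocount of 1 CPM, a filter at a mean of 1 CPM and leaving out each library. The 4 WT isoproterenol and WT saline pairs with the same replicate number in the titles deviated together, with correlations from 0.2099 to 0.5355. The 4 such pairs of KO isoproterenol and KO saline were also positive, at 0.0329 to 0.2389. Each remaining pair of groups held a negative value. Among WT libraries of unlike number, WT isoproterenol replicate 2 and WT saline replicate 1 reached 0.371. Over all groups, KO saline replicate 4 and WT saline replicate 2 reached 0.3918. Given the WT values, the WT groups were also fitted alone with the replicate number as a block, an alternative chosen after seeing the data. Skeletal muscle marker scores of replicates 1 to 4 were -0.19, -4.49, 2.35 and 3.75 in WT isoproterenol. In WT saline they were 0.89, -3.82, 2.73 and 5.50. Whether muscle in the tissue bears on the block was not tested. Symbols were found for 15320 identifiers. Levels per length use the union of exons of an annotation of another build.

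The members and lists were chosen with earlier results of these data known. Named genes are the 10 members, up to 4 called genes per pathway list and comparison by size of difference, the 5 genes most like Gdf10 and Bmp8b, and Ucp1. Ppie and Orc4 were added because they overlap members. Some pathway genes called only in an alternative fit were named after their values were seen. 1 listed pathway gene is not reported here and stands in no count of the lists.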

Additional observations from a re-analysis of the deposited data

Results flagged for a closer look

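The response of Inhbb to isoproterenol differed between the genotypes by 2.40 on the log2 scale (KO response minus WT response, SE 0.64, adjusted p = 0.0163 by limma). KO isoproterenol libraries had 2.21 to 10.4 CPM, against 2.54 to 5.33 CPM in KO saline libraries, and WT isoproterenol libraries had 0.379 to 1.27 CPM, against 1.95 to 3.75 CPM in WT saline libraries. It was the member for which the difference of responses passed the threshold. In the 40 sets of 4 libraries formed by 10 members and 4 groups, 0 had a library past Dixon's 95% critical value, a rule that chance alone meets in about 1 in 20 sets.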

How the results depend on the processing

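Every count of called members kept its value with the replicate block over the 16 libraries, with a pseudocount of 1 CPM and with the filter at 1 CPM. With groups fitted alone, called members numbered 1 for isoproterenol in KO, 4 in WT and 2 for KO against WT under isoproterenol. Of 15350 genes, 5178, 4923 and 4639 were called there. With library totals the members called were 2 in WT and 5 for KO against WT under isoproterenol, beside 2518 and 7557 of all genes. With voom weights 1 member was called for isoproterenol in WT, beside 2329 of all genes. Over the fits that left out a library the member count ran from 2 to 3 in KO, beside 6650 to 8313 of all genes. In WT it ran from 2 to 3, beside 1623 to 3640. It ran from 3 to 5 for KO against WT under isoproterenol, beside 5781 to 7709. For the difference of responses it ran from 1 to 3, beside 2618 to 5666. The highest member counts were those without KO isoproterenol replicate 1. A fit of the WT groups alone with the replicate block, chosen after seeing the data, called 5 members in WT, and the same fit without the block called 4. The fit with the block gave 5297 calls over all genes. Over the 24 pairs with the same number, the correlation of deviations from group means ran from -0.4311 to 0.5355, with a median of 0.0367. The median was -0.0141 over the 72 other pairs. The replicate block over the 16 libraries left 3, 2, 0, 4 and 1 members called in the comparisons, as without it. Signs that turned were all of values not called. With library totals these were Bmpr2 in WT (-0.000195), Gdf10 (0.15) and Bmp4 (0.047) in KO, Acvr1c for KO against WT under saline (-0.013) and the difference of responses of Bmpr2 (0.21), and with voom weights Gdf10 in KO (0.0026) and the difference of responses of Bmp2 (-0.035). Leaving out a library turned 29 of 800 values, made 14 weaker and 6 stronger and left 751 on their side. Ranges that crossed 0 were -0.12 to 0.13 for Acvr1c in WT, and in KO -0.47 to 0.34 for Gdf10, -0.26 to 0.030 for Bmp4, -0.10 to 0.34 for Bmpr1a and -0.011 to 0.083 for Bmpr2. For KO against WT under saline they were -0.34 to 0.050 for Gdf10, -0.37 to 1.41 for Bmp8b, -0.031 to 0.55 for Bmp2, -0.10 to 0.11 for Acvr1c and -0.053 to 0.024 for Acvr2a. Under isoproterenol they were -1.23 to 0.46 for Bmp8b and -0.11 to 0.12 for Bmpr2, and for the difference of responses -0.35 to 0.24 for Bmp2. Over all genes, isoproterenol in WT gave 2546 calls, 4923 with the WT groups fitted alone, 1623 and 1672 when WT saline replicate 2 or WT saline replicate 3 was left out. KO against WT under saline gave 15, with 50 when fitted alone, 37 without KO isoproterenol replicate 1 and as few as 4 without WT saline replicate 2. With library totals the difference of responses had 2895 higher and 1477 lower, against 1674 and 2113. The causes of these shifts were not tested. Few reads limit the values of Bmp8b in saline tissue and of Inhbb in WT isoproterenol.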
